A study of Mus musculus with 12 samples.

Results

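The 10 genes described here, Fkbp5, Tsc22d3, Zbtb16, Sgk1, Klf9, Ddit4, Pik3ip1, Cdkn1a, Mt1 and Mt2, are genes that respond to glucocorticoids or to fasting in many tissues. They were matched by symbol in the deposited estimated count table, and all 10 were found among its 29564 genes. All 10 also passed the filter on low counts, which left 14333 genes for testing. Poly(A) RNA was sequenced from the left ventricle of 12 wild-type C57BL6 mice (C57BL/6J in the study's methods), 1 library per mouse and 4 mice per group. Control + Veh mice (libraries C1 to C4) were non-failing and received vehicle. HFpEF + Veh mice (V1 to V4) were fed a high-fat diet with L-NAME, an inhibitor of nitric oxide synthases, to model HFpEF (heart failure in which ejection fraction is preserved), and received vehicle. HFpEF + TYA-018 mice (T1 to T4) were prepared in the same way and received 15 mg/kg of TYA-018 by mouth. TYA-018 is a small molecule inhibitor of the cytoplasmic deacetylase HDAC6. The study describes hearts taken hours after 1 dose, as does the series title, whereas the treatment text of the labels describes daily dosing over weeks. The labels give no age or sex, and the study's methods describe male mice bought as young adults, with chow-fed controls. The time of day and the feeding state at tissue collection of these mice are not given in the sources used here. The animal numbers of each group lie together, so cage, date or order of handling cannot be told apart from the group.

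Glucocorticoids enter the cell and bind the glucocorticoid receptor, which is held ready by heat shock proteins and immunophilins and then binds DNA at a pair of short mirrored sites, the glucocorticoid response element. Fkbp5, Tsc22d3, Zbtb16, Klf9 and Sgk1 are common targets of this receptor, and in heart muscle Sgk1 and Klf9 are also reached by the related mineralocorticoid receptor. Fasting lowers insulin, which frees the FoxO transcription factors to act on forkhead elements, and it raises glucocorticoids as well. Ddit4 and Pik3ip1 then restrain mTORC1 and PI3 kinase, Cdkn1a arrests the cell cycle and is the best known target of p53, and the metallothioneins Mt1 and Mt2 respond to zinc through the factor MTF1 as well as to glucocorticoids.

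Promoter sequences show where letters of these elements lie next to the genes. RefSeq promoters on GRCm38.p6 were at hand for 9 of the 10 genes, in 17 windows of 250 bases before an annotated start, and Zbtb16 had none. A glucocorticoid response element, searched on both strands as GNACA, any 3 bases, then TGTNC, was found in 127 of 32851 promoter windows, or 0.387%. Of the 17 windows, 2 held it, those of Mt1 and of a start within Sgk1. The metal response element, searched as TGCACNC or TGCGCNC on both strands, was in 21.4% of all windows and in those of Mt1, Mt2 and Ddit4. The forkhead element GTAAACA was in 3.17% of all windows and in that of Klf9. Windows of Fkbp5, Tsc22d3, Cdkn1a and Pik3ip1 held none of these 3 elements, which says only that the letters were not in these windows. The left arm GNACA alone, searched on both strands and part of the longer element, was in 81.3% of all windows, so it sets no gene apart. The 4 windows below were chosen because they hold matches that the groups of genes are named for. They run from 250 to 11 bases before the start, 240 bases each, with the matches in capitals.
Sgk1 promoter, chr10:21993640-21993879, plus strand: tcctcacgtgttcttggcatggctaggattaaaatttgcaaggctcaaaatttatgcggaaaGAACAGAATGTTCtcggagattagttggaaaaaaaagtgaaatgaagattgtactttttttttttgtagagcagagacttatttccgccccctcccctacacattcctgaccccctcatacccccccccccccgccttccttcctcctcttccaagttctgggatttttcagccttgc
Mt1 promoter, chr8:94178839-94179078, plus strand: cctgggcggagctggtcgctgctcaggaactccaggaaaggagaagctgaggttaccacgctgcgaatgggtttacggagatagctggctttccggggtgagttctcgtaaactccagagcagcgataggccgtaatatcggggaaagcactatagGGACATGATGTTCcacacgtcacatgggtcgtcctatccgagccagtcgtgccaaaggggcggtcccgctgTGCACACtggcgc
Mt2 promoter, chr8:94172368-94172607, plus strand: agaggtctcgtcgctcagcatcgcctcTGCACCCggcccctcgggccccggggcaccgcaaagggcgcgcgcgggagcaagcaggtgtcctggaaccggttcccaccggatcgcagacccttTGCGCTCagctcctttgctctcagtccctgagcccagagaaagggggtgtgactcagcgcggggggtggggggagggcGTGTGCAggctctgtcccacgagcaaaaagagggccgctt
Klf9 promoter, chr19:23140976-23141215, plus strand: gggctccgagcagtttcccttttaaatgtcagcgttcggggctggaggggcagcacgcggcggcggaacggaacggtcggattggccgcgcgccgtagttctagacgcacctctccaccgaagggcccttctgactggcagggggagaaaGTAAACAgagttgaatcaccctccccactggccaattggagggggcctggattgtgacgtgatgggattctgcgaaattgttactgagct
The Sgk1 match GAACAGAATGTTC lies 188 to 176 bases before its start and the Mt1 match GGACATGATGTTC lies 94 to 82 bases before its start, both glucocorticoid response elements. The other capitals in Mt1 and all 3 runs in Mt2 are metal response elements, the last in Mt2 read from the opposite strand, and the capitals in Klf9 are the forkhead element. A match is a string of letters and not a measured binding site.

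Levels are given as CPM, estimated counts put on a common library size with edgeR's TMM factors, and groups as mean ± SD with n = 4. Log2 fold changes and adjusted p values come from 1 edgeR quasi-likelihood fit to the 12 libraries, with Benjamini-Hochberg adjustment over the 14333 genes, and a gene was called at an adjusted p under 0.05. The total estimated count was between 61.2 and 83.9 M per library, and the deepest was T1. Genes coded by mitochondrial DNA held between 35.4% and 47.7% of the counts, with 43.1% to 47.7% in HFpEF + Veh against 37.0% to 40.6% in Control + Veh and 35.4% to 41.2% in HFpEF + TYA-018. The tissue label fits its markers in level, since the summed CPM of 7 cardiomyocyte genes was between 23764 and 34400 in every library, whereas 6 adipocyte genes summed to at most 1.40.

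**Figure D1:**
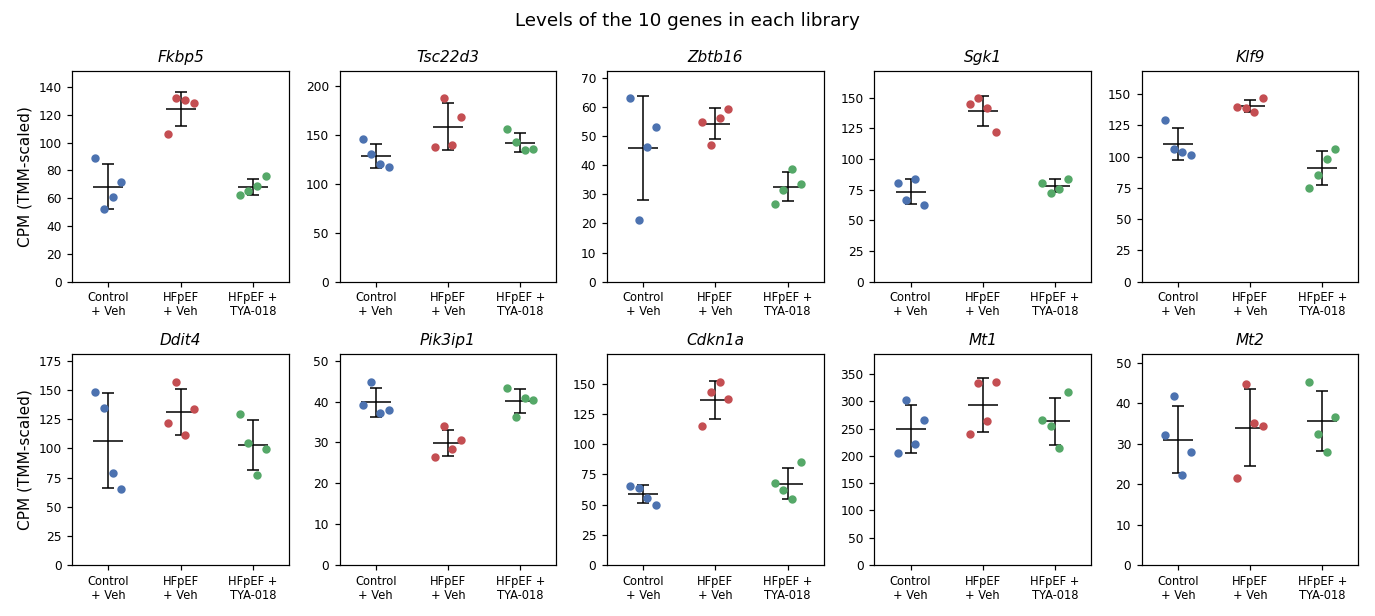
Level of each of the 10 genes in CPM after TMM scaling (vertical axis, starting at 0) in the 3 groups, with a point per library and the mean ± SD as a bar with whiskers. Fkbp5, Sgk1 and Cdkn1a in HFpEF + Veh lie above every library of both other groups, and Pik3ip1 in HFpEF + Veh lies below them.

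Of the 10 genes, 5 differed between the HFpEF + Veh hearts and each of the other groups, and none was called between dosed hearts and controls. In HFpEF + Veh against Control + Veh, 4 of the 10 rose (Sgk1, Cdkn1a, Fkbp5 and Klf9), Pik3ip1 fell and 5 did not pass the test. For scale, 21.2% of all genes tested were called in this comparison, 10.9% higher and 10.3% lower. In 5 of the 10 the 4 libraries of one group did not overlap with the 4 of the other, against 23.5% of all genes. In HFpEF + TYA-018 against HFpEF + Veh, the same 5 were called, with Sgk1, Cdkn1a, Fkbp5 and Klf9 lower and Pik3ip1 higher, where 19.3% of all genes were called, 8.93% higher and 10.4% lower. Groups did not overlap in 6 of the 10, these 5 and Zbtb16, against 25.1% of all genes. These comparisons share the HFpEF + Veh libraries, so a low or high level there enters both. With limma on log2(TPM + 1) the calls over all genes in the second comparison were 2228 higher and 68 lower, around a median log2 fold change of 0.17, against 1280 higher and 1487 lower by edgeR. The median log2 fold change of the 10 by edgeR was 0.30 in the first and -0.49 in the second, against -0.01 and 0.00 over all genes tested. The 10 genes were chosen with earlier results of these data known, so shares and medians over all genes give scale and are not a test. In HFpEF + TYA-018 against Control + Veh, none of the 10 was called by edgeR, by DESeq2 or by limma, and 1 of the 10 (Klf9) had an unadjusted edgeR p under 0.05. In that comparison 5.86% of all genes were called, 3.12% higher and 2.74% lower, and the groups did not overlap in 0 of the 10 against 14.8% of all genes. The median log2 fold change of the 10 was then 0.05, against -0.02 over all genes.

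**Figure D2:**
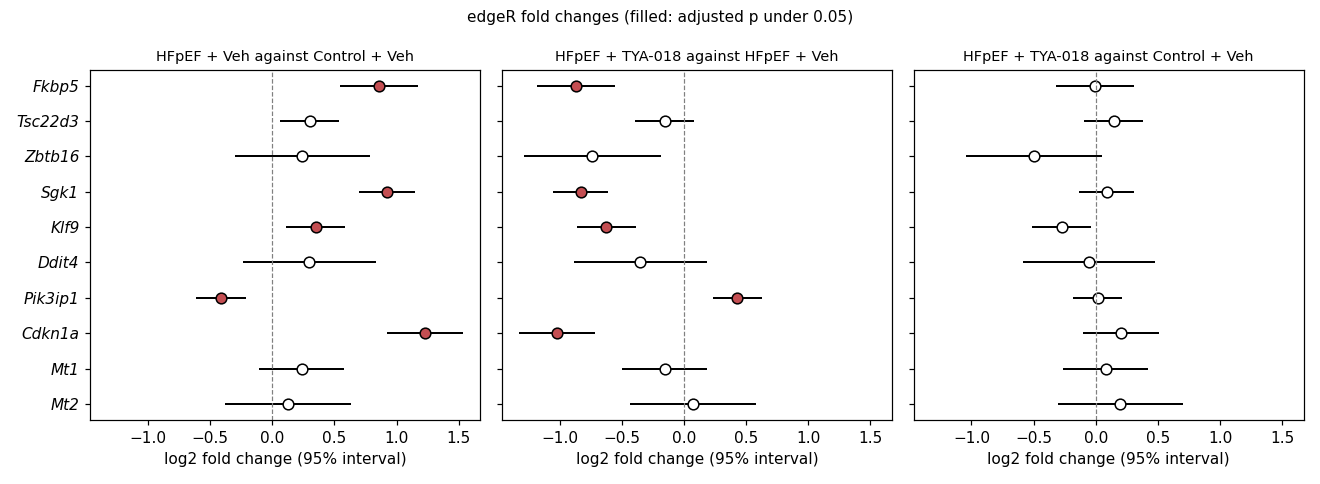
Log2 fold change (horizontal axis) with its 95% interval for each of the 10 genes in the 3 comparisons, with filled points for genes called by edgeR. Sgk1, Cdkn1a, Fkbp5, Klf9 and Pik3ip1 are filled in the left and middle panels, on opposite sides of 0, and no point is filled on the right.

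Fkbp5 encodes the immunophilin FKBP51, which lowers the receptor's affinity for its hormone and is itself induced by it (GRCm38, chr17:28399094-28517527, minus strand). Its level was 89.3, 52.4, 60.8 and 71.5 CPM in C1 to C4, 106, 132, 131 and 128 CPM in V1 to V4, and 62.7, 65.3, 68.7 and 76.1 CPM in T1 to T4. All 4 HFpEF + Veh libraries were above the 8 others, and the lowest of them, V1, lay apart from the other 3. The means were 68.5 ± 15.9, 124 ± 12.1 and 68.2 ± 5.81 CPM (SD, n = 4). Fkbp5 rose 1.82-fold in the model (edgeR adjusted p 0.00194), a log2 fold change of 0.86 with SE 0.14. It fell after TYA-018 to 0.548 of the HFpEF + Veh level (log2 fold change -0.87, SE 0.14, edgeR adjusted p 0.00257). The dosed hearts differed from the controls by -0.01 on the log2 scale, with a 95% interval from -0.31 to 0.30.

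Sgk1, a kinase that promotes sodium transport and cell survival, is induced by glucocorticoids, by aldosterone and by osmotic stress (chr10:21882184-21999903, plus strand). It measured 80.6, 67.0, 83.5 and 62.9 CPM in the controls, 144, 149, 142 and 122 CPM in HFpEF + Veh, and 80.8, 72.6, 75.3 and 84.1 CPM after TYA-018. The lowest HFpEF + Veh library exceeded the highest of the others. Sgk1 rose 1.90-fold in the model (log2 fold change 0.92, SE 0.10, edgeR adjusted p 0.000412), and by p it ranked at 20 among all genes of that comparison. After TYA-018 it fell to 0.561 of the vehicle level (log2 fold change -0.83, SE 0.10, edgeR adjusted p 0.00068). Dosed and control hearts differed by 0.09 (95% interval from -0.12 to 0.30). Its promoter with the glucocorticoid response element, shown above, belongs to 1 of 6 RefSeq windows of Sgk1, and gene level counts do not say which start was in use.

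Klf9, a zinc finger repressor that follows the daily glucocorticoid rhythm, lies at chr19:23141226-23168134 on the plus strand. It measured 129, 106, 104 and 101 CPM in the controls, 140, 139, 136 and 147 CPM in HFpEF + Veh, and 75.0, 84.9, 98.3 and 106 CPM after TYA-018. The model libraries lay close together, above all others, and C1 was the control nearest to them. The rise in the model was 1.27-fold (log2 fold change 0.35, SE 0.11, edgeR adjusted p 0.0350). This call was lost when any 1 library of these groups other than C1 was left out, with adjusted p between 0.0615 and 0.0990, and without C1 it was 0.00878. The fall after TYA-018, to 0.648 of the vehicle level, was larger (log2 fold change -0.62, SE 0.11, edgeR adjusted p 0.00302) and was called with each library left out in turn. Against the controls the dosed hearts had a log2 fold change of -0.28, with an unadjusted p of 0.0228 and an edgeR adjusted p of 0.147.

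Tsc22d3 encodes GILZ, a leucine zipper protein that carries part of the anti-inflammatory action of glucocorticoids (chrX:140539528-140600659, minus strand). It measured 145, 131, 120 and 118 CPM in the controls, 137, 187, 140 and 168 CPM in HFpEF + Veh, and 156, 142, 134 and 135 CPM after TYA-018. The groups overlapped in every comparison, and V1 and V3 lay among the controls. Its log2 fold change was 0.30 in the model (edgeR adjusted p 0.0609) and -0.16 after TYA-018 (edgeR adjusted p 0.327). The first was called without C1 (adjusted p 0.0272), without V1 (0.0384) by DESeq2 (0.0211) and with the deposited effective lengths as an offset (log2 fold change 0.54), so the data do not settle it.

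Zbtb16 encodes PLZF, a transcriptional repressor strongly induced by glucocorticoids in several cell types (chr9:48654297-48836222, minus strand). It measured 62.9 CPM in C1, 21.0 in C2, 46.3 in C3 and 53.1 in C4. The HFpEF + Veh libraries measured 54.7, 46.9, 56.2 and 59.2 CPM and the dosed ones 26.5, 31.6, 38.5 and 33.6 CPM. C2 was the lowest of all 12 libraries, and every dosed library was below every HFpEF + Veh library. The log2 fold change after TYA-018 was -0.74 (SE 0.25) and missed the threshold (edgeR adjusted p 0.0570), while it passed with DESeq2 (adjusted p 0.0410) and with only the 2 groups compared in the fit (0.00423). With the deposited effective lengths as an offset the fall was smaller (log2 fold change -0.38, edgeR adjusted p 0.393). Mean deposited TPM was 1.13 ± 0.48, 1.07 ± 0.24 and 1.13 ± 0.27 in the 3 groups. In the model the log2 fold change by the main fit was 0.24 (edgeR adjusted p 0.521). Dosed hearts against controls gave -0.49 (edgeR adjusted p 0.264), and without C2 this became -0.73 with an adjusted p of 0.0160.

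Cdkn1a, which encodes the cyclin-dependent kinase inhibitor p21 and answers to p53, glucocorticoids and FoxO factors, showed the largest fold changes of the 10 genes in the first 2 comparisons (chr17:29090976-29100727, plus strand). It measured 65.3, 63.7, 55.3 and 49.4 CPM in the controls, 115, 143, 152 and 138 CPM in HFpEF + Veh, and 67.8, 62.1, 54.4 and 84.9 CPM after TYA-018. The HFpEF + Veh libraries stood above all others, while T1 and T4 were the dosed libraries that exceeded every control. Cdkn1a rose 2.34-fold in the model (edgeR adjusted p 0.000441), a log2 fold change of 1.23 with SE 0.14. It fell after TYA-018 to 0.491 of the vehicle level (log2 fold change -1.02, SE 0.14, edgeR adjusted p 0.00119). Dosed hearts differed from controls by 0.20 (95% interval from -0.09 to 0.50, edgeR adjusted p 0.415).

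Pik3ip1, a membrane protein that binds and restrains the PI3 kinase catalytic subunit, moved the other way (chr11:3330401-3342971, plus strand). It measured 39.0, 44.9, 37.2 and 38.0 CPM in the controls, 26.4, 34.0, 28.4 and 30.7 CPM in HFpEF + Veh, and 43.3, 36.3, 41.0 and 40.3 CPM after TYA-018. Every HFpEF + Veh library was below every other library. The fall in the model was to 0.751 of the control level (log2 fold change -0.41, SE 0.09, edgeR adjusted p 0.00713), and the rise after TYA-018 was 1.35-fold (log2 fold change 0.43, SE 0.09, edgeR adjusted p 0.00700). Both calls were lost with the deposited effective lengths as an offset, where the log2 fold changes were 0.18 and -0.03. Pik3ip1 is therefore called on counts and not per deposited length.

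Ddit4 encodes REDD1, which inhibits mTORC1 through the TSC complex and rises with glucocorticoids, fasting and low oxygen (chr10:59949669-59951834, minus strand). It measured 148, 134, 78.8 and 65.3 CPM in C1 to C4, 122, 157, 112 and 134 CPM in V1 to V4, and 130, 105, 77.1 and 99.8 CPM in T1 to T4. The controls alone spanned most of the range of all 12 libraries, with C1 and C2 far above C3 and C4. Its log2 fold changes were 0.30 (SE 0.24, edgeR adjusted p 0.405) in the model and -0.35 (SE 0.24, edgeR adjusted p 0.338) after TYA-018. The 95% intervals ran from -0.23 to 0.82 and from -0.88 to 0.17, so with this spread the direction of a change, if any, was not settled.

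The metallothioneins Mt1 (chr8:94179082-94180327) and Mt2 (chr8:94172664-94173568) are neighbours on the plus strand and encode small cysteine-rich proteins that bind zinc and copper. Mt1 measured 205, 303, 222 and 266 CPM in the controls, 240, 333, 263 and 336 CPM in HFpEF + Veh, and 265, 255, 214 and 318 CPM after TYA-018. Mt2 measured 32.1, 41.9, 22.1 and 27.9 CPM, then 21.6, 44.8, 35.0 and 34.3 CPM, then 45.4, 32.3, 28.0 and 36.7 CPM in the same order of groups. Both genes overlapped between the groups in every comparison. The log2 fold changes of Mt1 were 0.24 in the model and -0.16 after TYA-018 (edgeR adjusted p 0.296 and 0.513). Those of Mt2 were 0.13 and 0.07 (edgeR adjusted p 0.727 and 0.864). The 95% interval after TYA-018 ran from -0.49 to 0.18 for Mt1 and from -0.43 to 0.57 for Mt2. Mt1 carries both a glucocorticoid and a metal response element in the window shown above, and Mt2 carries 3 metal response elements.

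Per unit of length, Mt1 had the highest level of the 10 genes in every group. Divided by the longest annotated transcript, the mean CPM per kb in the controls was 229 for Mt1, 60.8 for Ddit4, 60.7 for Mt2, 44.6 for Tsc22d3, 28.1 for Cdkn1a, 24.5 for Klf9, 23.7 for Sgk1, 17.7 for Fkbp5, 15.5 for Pik3ip1 and 8.96 for Zbtb16. Ddit4 and Mt2 lay closer than the spread of either over the control libraries, and so did Klf9 and Sgk1. In HFpEF + Veh, Cdkn1a was at 65.8 CPM per kb, next to Mt2 at 66.4 and below Ddit4 at 74.7, and Sgk1 at 45.0 lay below Tsc22d3 at 54.9. The deposited TPM, which uses the deposited effective lengths, ordered the controls otherwise, with Mt1 at 344 ± 50.0, Mt2 at 43.0 ± 11.1, Sgk1 at 29.3 ± 8.98 and Klf9 at 5.47 ± 0.717, and Ddit4 at only 3.19 ± 1.43. The single annotated Ddit4 transcript has 1755 bases, whereas its deposited effective length was between 7719 and 13573 bases, so TPM levels of Ddit4 rest on that length. Lengths of Zbtb16 (9295 to 18199 bases) and Klf9 (6274 to 7948) also exceeded their longest annotated transcripts (5114 and 4486) in every library. The highest lengths of Fkbp5 (10154), Cdkn1a (5108) and Pik3ip1 (2746) did so as well (3858, 2080 and 2573). TPM levels of these genes carry the same limit.

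**Figure D3:**
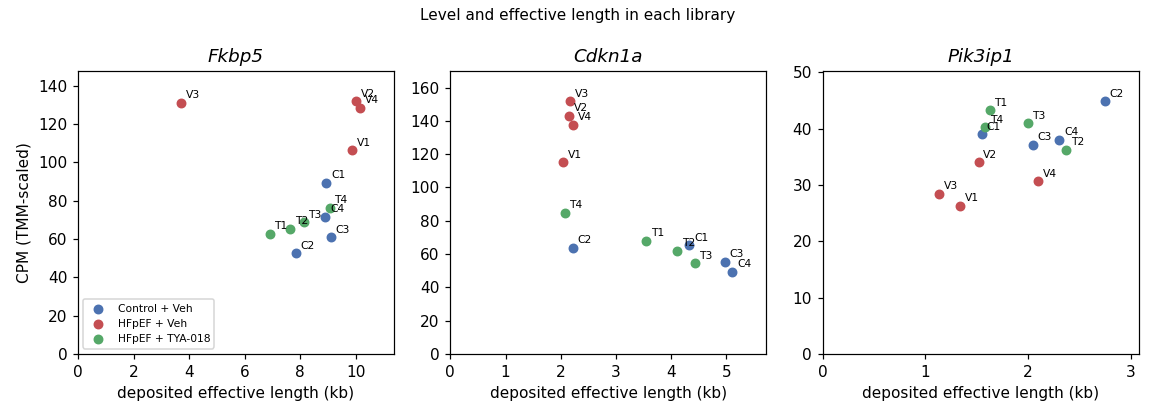
Level in CPM after TMM scaling (vertical axis) against the deposited effective length in kb (horizontal axis) of Fkbp5, Cdkn1a and Pik3ip1, with a point per library coloured by group. V3 stands alone at a short Fkbp5 length, the 4 HFpEF + Veh libraries with C2 and T4 lie at short Cdkn1a lengths, and Pik3ip1 lengths spread in all groups.

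The deposited effective length of some of these genes differed between libraries and in part with the groups. For Zbtb16 it was 14172 to 18199 bases in HFpEF + Veh and 9295 to 13671 bases after TYA-018, without overlap. For Tsc22d3 it was 1771 to 1872 and 1942 to 2054 bases in these groups. Cdkn1a was short in every HFpEF + Veh library, and also in C2 and T4. Its length was 2039 to 2224 bases in the 4 HFpEF + Veh libraries, against 4331, 2217, 4980 and 5108 bases in C1 to C4 and 3545, 4108, 4425 and 2076 bases in T1 to T4. In TPM, Cdkn1a therefore had a wider gap between groups, 5.58 ± 2.84 in the controls, 20.3 ± 3.02 in HFpEF + Veh and 8.31 ± 3.94 after TYA-018. Fkbp5 had an effective length of 3706 bases in V3 against 9860 to 10154 bases in the other 3 HFpEF + Veh libraries. Its TPM was 12.4 in V3 and between 3.42 and 4.07 in those 3. Control + Veh had 2.23 to 3.72 and HFpEF + TYA-018 had 2.72 to 4.58, so apart from V3 the groups overlapped in TPM. With limma on log2(TPM + 1), Fkbp5 was not called in the model (adjusted p 0.212) or after TYA-018 (adjusted p 0.245). The effective length of Mt1 and Mt2 was 251 bases in every library. With limma on log2(TPM + 1), 1 of the 10 was called in each of the first 2 comparisons, Cdkn1a in both. With the effective lengths as an offset in edgeR, Fkbp5, Sgk1, Klf9 and Cdkn1a were still called in both. The part of transcript use in these lengths was not tested.

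Of 15 genes for the receptors and the proteins that handle the hormone, 1 rose and 1 fell in the model, where 21.2% of all genes were called, with a median log2 fold change of 0.04. Nr3c2, the mineralocorticoid receptor, averaged 14.0 ± 0.93 CPM in the controls and fell to 8.50 ± 1.20 CPM (edgeR adjusted p 0.000784, log2 fold change -0.72), and Hsp90aa1, a chaperone of the receptors, rose with a log2 fold change of 0.33 (adjusted p 0.0143). After TYA-018, 2 rose and 1 fell, a share near the 19.3% of all genes. Nr3c2 rose to 11.3 ± 0.60 CPM (edgeR adjusted p 0.0121, log2 fold change 0.41), and so did Fkbp4 (0.28, adjusted p 0.0161), the immunophilin that carries the receptor to the nucleus. Abcb1a, a pump that exports steroids, fell (-0.50, adjusted p 0.0467). None of the 15 was called in dosed hearts against controls by edgeR, and Nr3c2 had the smallest p there (log2 fold change -0.30, adjusted p 0.0803). The glucocorticoid receptor gene Nr3c1, singled out after its values were seen, measured 31.3 ± 2.76, 32.9 ± 2.30 and 30.1 ± 2.04 CPM in the 3 groups, with log2 fold changes of 0.07 and -0.13 that were not called.

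Other glucocorticoid targets did not share 1 direction in the model. Of 20, 2 rose and 3 fell, where 10.9% of all genes tested were called higher and 10.3% lower. Errfi1, a feedback inhibitor of the EGF receptor, rose (log2 fold change 0.54, edgeR adjusted p 0.00466), and so did Mertk, a receptor for the uptake of dead cells (0.35, adjusted p 0.00805). Cebpb, a factor of acute stress responses, fell (-0.47, adjusted p 0.00192), as did Arrdc2, an arrestin-like gene (-0.64, adjusted p 0.0204). The third that fell, Rgs2 (-0.56, adjusted p 0.0328), is named after its values were seen. After TYA-018, 1 rose and 6 fell, where 8.93% of all genes were called higher and 10.4% lower. Cebpb rose (0.35, adjusted p 0.00933). Mertk (-0.66, adjusted p 0.000664), Hif3a (-0.72, adjusted p 0.00527) and Errfi1 (-0.54, adjusted p 0.00575) were among those that fell. Dosed hearts against controls had 0 higher and 4 lower, namely Hif3a (-0.74, adjusted p 0.0121), Arrdc2 (-0.85, adjusted p 0.0178), the fasting-induced kinase Pdk4 (-0.86, adjusted p 0.0322) and Mertk (-0.31, adjusted p 0.0356). The list medians in the 3 comparisons were 0.06, -0.20 and -0.11.

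**Figure D4:**
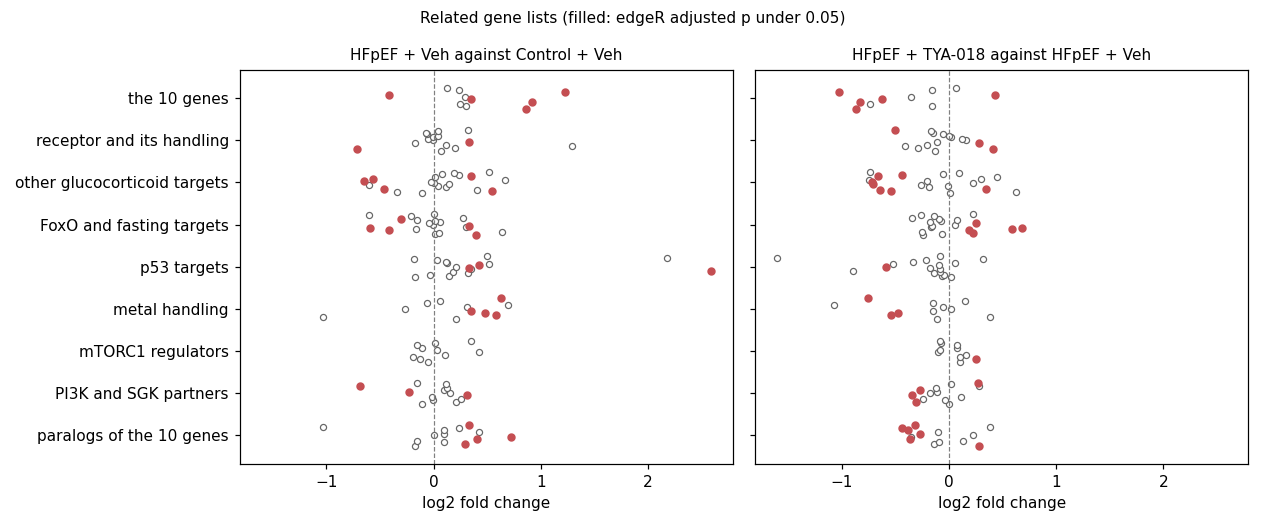
Log2 fold change (horizontal axis) of each tested gene of the 10 and of 8 related lists (rows) in HFpEF + Veh against Control + Veh and in HFpEF + TYA-018 against HFpEF + Veh, with filled points for genes called by edgeR. Called genes lie on both sides of 0 in some lists and on a single side in others, and for the FoxO list the 5 filled points in the right panel are all above 0.

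Genes of the FoxO and fasting list that were called split in the model, and those called after the dose rose. Of 19 tested of 20, 2 rose and 3 fell in the model, where 10.9% of all genes were called higher and 10.3% lower. The insulin receptor gene Insr fell (log2 fold change -0.41, edgeR adjusted p 0.00132), as did the ubiquitin ligase gene Fbxo32 (-0.59, adjusted p 0.00273) and Cited2 (-0.31, adjusted p 0.0459). The mitophagy gene Bnip3 (0.34, adjusted p 0.00205) and Foxo1 (0.39, adjusted p 0.00894) rose. After TYA-018, 5 rose and 0 fell, where 8.93% of all genes were called higher and 10.4% lower. Those that rose included Fbxo32 (0.68, adjusted p 0.00189), the muscle ubiquitin ligase gene Trim63 (0.59, adjusted p 0.00508), the autophagy gene Gabarapl1 (0.26, adjusted p 0.0141) and Foxo4 (0.22, adjusted p 0.0215). The fifth was Insr (0.19, adjusted p 0.0494), named, like Cited2 above, after the values were seen. The median over the 19 was still -0.07, since 11 of the 19 had a negative sign. Dosed hearts against controls had 2 higher, Foxo4 and Trim63, and 2 lower, Pdk4 and Cited2.

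Of 17 genes listed for p53, Trp53 itself and targets other than Cdkn1a, 3 rose and 0 fell in the model, Gdf15, Phlda3 and Zmat3. Over all genes tested, 10.9% were called higher and 10.3% lower. Of the 17, 14 had a positive log2 fold change in the model (median 0.21) and 14 a negative one after TYA-018 (median -0.09). Gdf15, a stress hormone of the TGF-beta family, averaged 0.651 ± 0.20 CPM in the controls and 3.91 ± 1.57 CPM in the model (edgeR adjusted p 0.00160, log2 fold change 2.58). After TYA-018, 1 fell, Trp53inp1 (-0.59, adjusted p 0.0120), and Gdf15 had a log2 fold change of -0.89 that was not called (adjusted p 0.120). Gdf15 was the only gene of the list called in dosed hearts against controls (1.69, adjusted p 0.0303).

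Of 11 metal handling genes, 4 rose and 0 fell in the model, where 10.9% of all genes were called higher and 10.3% lower. After TYA-018 3 fell, against 10.4% of all genes called lower, while Mt1 and Mt2 were called in neither comparison. Ndrg1, a stress gene, averaged 57.4 ± 5.09 CPM in the controls, rose to 88.7 ± 9.43 CPM (edgeR adjusted p 0.000975, log2 fold change 0.63) and fell to 52.5 ± 3.59 CPM (-0.76, adjusted p 0.000664). The zinc exporter gene Slc30a1, a target of MTF1, rose (0.59, adjusted p 0.00464) and fell (-0.54, adjusted p 0.00835). The importer genes Slc39a14 (0.35, adjusted p 0.0156) and Slc39a10 (0.48, adjusted p 0.0388) rose, and Slc39a10 fell after the dose (-0.47, adjusted p 0.0440). None of the 11 was called in dosed hearts against controls by edgeR, where Slc31a1, a copper importer gene, had the smallest p.

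Ddit4 and Pik3ip1 act on mTORC1 and PI3 kinase, whose other genes were listed separately. Of 10 tested mTORC1 regulators, 0 were called in the model by edgeR, where 21.2% of all genes were called. Tsc1 had the smallest p of these regulators (log2 fold change -0.19, unadjusted edgeR p 0.0386). After TYA-018, Rptor, the scaffold of mTORC1, rose (0.25, adjusted p 0.0123), and in dosed hearts against controls Rheb, its activator, was higher (0.27, adjusted p 0.0234). Among tested partners of PI3 kinase and Sgk1, the ubiquitin ligase gene Nedd4l, which encodes a substrate of SGK1 (-0.69, adjusted p 0.00657), and Rictor (-0.23, adjusted p 0.0437) fell in the model. After TYA-018 Akt2 rose (0.27) and Pik3cb (-0.31) and Sgk3 (-0.27) fell, and Rictor was lower in dosed hearts than in controls (-0.34, adjusted p 0.0234). Among 13 tested paralogs of the 10 genes, 4 rose in the model, Klf4, Zbtb7a, Klf13 and Tsc22d1, against 10.9% of all genes called higher. Klf4, a paralog of Klf9, had a log2 fold change of 0.72 (adjusted p 0.00191). After TYA-018 1 paralog rose, Fkbp4, and 5 fell, where 8.93% of all genes were called higher and 10.4% lower. Zbtb7a (-0.31), Klf13 (-0.36) and Cdkn1b (-0.38) were among the paralogs that fell.

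In bulk tissue fewer cells of a type and less RNA per cell cannot be told apart, and markers of other cell types moved with the groups. The summed CPM of 6 fibroblast markers was 414 to 600 in Control + Veh, 581 to 819 in HFpEF + Veh and 383 to 568 in HFpEF + TYA-018, with 3 of 6 called higher in the model and 4 of 6 called lower after the dose. The sum of 5 macrophage markers was 76.2 to 89.9, 117 to 151 and 81.6 to 95.4 CPM. The sum of 6 endothelial markers was 704 to 802, 853 to 1033 and 670 to 827 CPM, with 3 of the 6 called higher in the model and lower after the dose (Pecam1, Cdh5 and Tie1). Egfl7 and Emcn had negative log2 fold changes in the model (-0.09 and -0.03, not called), and Egfl7 a positive one after the dose (0.15, not called). The sum of 6 mural markers was 775 to 893, 907 to 993 and 701 to 867 CPM, but Rgs5 was the only one called in either comparison, and 4 of the 6 had a negative log2 fold change in the model (median -0.17). Red cell genes averaged 2020 ± 345, 8203 ± 4159 and 2911 ± 569 CPM. The sum of 7 cardiomyocyte markers was 25244 to 34400, 23764 to 25568 and 26691 to 29167 CPM, with 5 of the 7 called lower in the model and 1, Actc1, called higher (log2 fold change 0.32, edgeR adjusted p 0.0391). Neutrophil and lymphocyte markers summed to at most 11.7 and 2.71 CPM in any library, both in controls. The fibroblast, macrophage, endothelial and red cell sums were thus on average highest in HFpEF + Veh, as were Fkbp5, Sgk1, Klf9 and Cdkn1a, and their part in those results was not tested. Leaving out the mitochondrial and globin genes before scaling kept all 5 calls in both comparisons. That step left the fibroblast, macrophage and endothelial genes in place, so it does not bear on their part.

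Among themselves, the 4 genes that rose ran together over the 12 libraries and against Pik3ip1. Over all libraries, Pearson's r of log2 CPM was 0.94 between Sgk1 and Cdkn1a, 0.90 between Fkbp5 and Cdkn1a, 0.89 between Fkbp5 and Sgk1 and -0.83 between Sgk1 and Pik3ip1. These values rest largely on the group means, since after centring on them the first was 0.36, the second 0.33, the third 0.22 and the last -0.06. Within groups, r was highest for Pik3ip1 with Mt2 (0.83), Tsc22d3 with Ddit4 (0.77) and Fkbp5 with Zbtb16 (0.75). Next came Tsc22d3 with Mt2 (0.70) and with Pik3ip1 (0.68), then Mt1 with Mt2 (0.66) and Ddit4 with Mt2 (0.66). Zbtb16 ran against Pik3ip1, Mt1 and Mt2 within groups (-0.56, -0.55 and -0.54). The values share libraries and scaling and are descriptions.

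**Figure D5:**
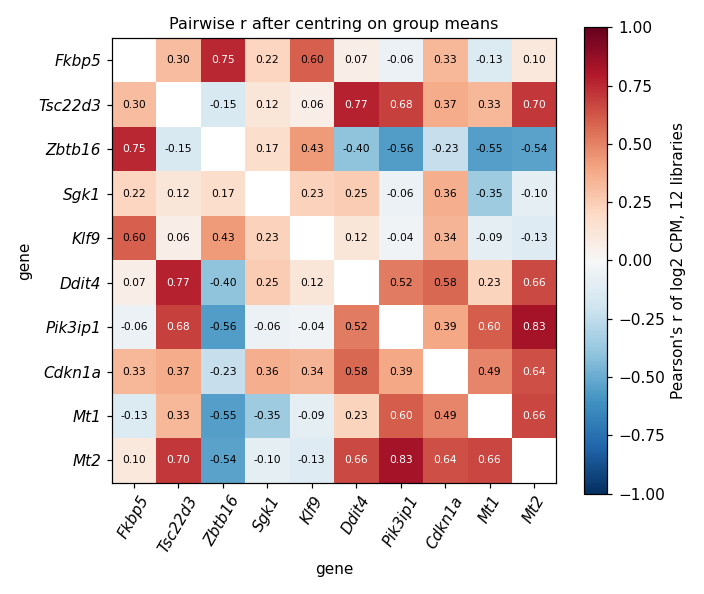
Pearson's r of log2 CPM between each pair of the 10 genes over the 12 libraries, after the mean of each group was taken out, on a colour scale from -1 to 1. Tsc22d3, Ddit4, Pik3ip1, Cdkn1a, Mt1 and Mt2 are positive with each other, and Zbtb16 is positive with Fkbp5 and Klf9 and negative with the metallothioneins.

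The genes outside the 10 whose levels followed each of the 5 called genes most closely were found by Pearson's r of log2 CPM over the 12 libraries. For Fkbp5 they were Klhl2 (0.99), Fam168a (0.98) and Mtmr2 (0.98). Fam168a averaged 27.9 CPM in the controls, 43.1 CPM in the model and 26.4 CPM after TYA-018. After centring on the group means Klhl2 still had an r of 0.94 and Fam168a of 0.94 with Fkbp5. For Sgk1 they were Cap1, Dcun1d3 and Ptpn9 (0.97, 0.97 and 0.96), and after centring r was 0.58, 0.88 and 0.67. For Cdkn1a they were Carhsp1, Plekha2 and Tprn (0.97, 0.97 and 0.96), and after centring r was 0.74, 0.85 and 0.72. For Klf9 they were Ccdc85a (0.99), Sppl2a (0.97) and Ptbp3 (0.97), and within groups these kept an r of 0.95, 0.96 and 0.92. For Pik3ip1 they were Wdr34, Lancl1 and 2010107G23Rik (0.95, 0.94 and 0.94), and after centring r was 0.75, 0.83 and 0.79. These are the highest of many correlations and are given as a description.

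At most 3.24% of the 31-base words in the transcripts of any of the 10 genes occurred in transcripts of another gene, with 0 for Klf9, Ddit4, Pik3ip1 and Mt1. Mt1 and Mt2 thus share 0 such words, and the 3 of Mt2 that occur elsewhere lie in Pip5k1a. The estimated counts of Fkbp5, Zbtb16, Cdkn1a and Mt1 were whole numbers in 0% of libraries, so shared words alone do not show how reads were assigned.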

How the data were processed

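The authors trimmed reads with fastp and quantified them with Salmon 1.6.0 and tximport against mouse GENCODE transcripts (GRCm38.p6). The submitters' processing notes name a human build, which does not match the mouse gene names. The deposited tables held estimated counts, TPM and effective lengths in bases per gene and library, of which 0 columns of values were left out. Estimated counts deposited by the authors are not normalised, and the authors' TPM columns summed to between 937748 and 963745 per library. The labels and the methods differ in read length, layout and depth.

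Groups were taken from the sample titles. Estimated counts were rounded to whole numbers. The test was that of edgeR 4.0.16 (R 4.3.3), with TMM scaling, filterByExpr (14333 genes kept) and 1 two-sided quasi-likelihood fit to the 12 libraries (9 residual degrees of freedom). Fold changes carry 95% intervals. limma 3.58.1 on log2(TPM + 1) and on log2(TPM + 0.1), DESeq2 1.42.0 and other settings were tried as alternatives. The edgeR steps were tested on simulated data. No source says that mice were littermates or processed apart, so p values measure the spread between these libraries. The smallest exact two-sided permutation p for 4 against 4 libraries is 0.0286. Counting error is small at these depths.

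The 10 genes and the 8 related lists were chosen with earlier results of these data known. All 10 are named, with up to 4 called genes of each list per comparison (smallest adjusted p), the gene of smallest p where none was called in a list, and the 3 most alike genes for each called one. Promoters came from RefSeq (GRCm38.p6). Gene coordinates and transcript lengths came from the GENCODE annotation in hand, which is older than the authors'. One gene of the list of PI3 kinase and Sgk1 partners is not reported here.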

Additional observations from a re-analysis of the deposited data

Results flagged for a closer look

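Of 30 groups of 4 libraries checked for a library standing apart (10 genes in 3 groups), 1 had one, where chance gives about 1 in 20. Fkbp5 in HFpEF + Veh measured 106 CPM in V1 and between 128 and 132 CPM in the other 3, a gap of 0.858 of the range. V1 was still above every Control + Veh and HFpEF + TYA-018 library.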

How the results depend on the processing

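No paired analysis was possible because the animal numbers of the groups do not coincide. Of 510 values for single genes under the alternatives, 215 with 1 library left out and 218 under other settings kept their direction and their side of the threshold. Another set of size factors, no filter on low counts, and the removal of mitochondrial and globin genes changed no call among the 10 genes. Below, TPM1 and TPM0.1 stand for limma on log2(TPM + 1) and on log2(TPM + 0.1), rescaled TPM for limma after protein-coding genes were rescaled, and offset for effective lengths as an offset in edgeR.

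In the model against controls, 1 of the 10 was called on TPM1, 1 on TPM0.1 and 2 on rescaled TPM, and over all genes 172, 301 and 1055, with 1444 by offset. Log2 fold changes that changed sign were Zbtb16 (-0.024 on TPM1, -0.0070 on TPM0.1), Pik3ip1 (0.18 by offset, 0.22 on rescaled TPM) and Mt2 (-0.011 on TPM1, -0.012 on TPM0.1). After TYA-018 against vehicle, 1 of the 10 was called on TPM1, 1 on TPM0.1 and 3 on rescaled TPM, and over all genes 742 on rescaled TPM and 1221 by offset. Signs changed for Tsc22d3 (0.030 on both TPM1 and TPM0.1), Zbtb16 (0.041 and 0.070), Ddit4 (0.21 and 0.23) and Mt1 (0.14 and 0.15), and by offset and on rescaled TPM for Pik3ip1 (-0.033 and -0.055) and Mt2 (-0.079 and -0.064). On TPM1 and TPM0.1 the median of all genes in that comparison was 0.17 and 0.34, so these values are read against that shift. In dosed hearts against controls, the calls over all genes were 206 by offset, 1514 by DESeq2, 9 on TPM1, 11 on TPM0.1 and 94 on rescaled TPM. Signs changed for Fkbp5 (0.0031 with only the 2 groups compared, 0.077 by offset, 0.24 on TPM1, 0.31 on TPM0.1, 0.12 on rescaled TPM), Zbtb16 (0.017 on TPM1, 0.063 on TPM0.1) and Ddit4 (0.20, 0.36, 0.45 and 0.26 by offset, TPM1, TPM0.1 and rescaled TPM). The cause was not tested.

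With 1 library left out, calls over all genes ranged from 1986 to 3992 in the model (lowest without C4), from 1485 to 2729 after TYA-018 (1485 without T1, 1631 without T2) and from 308 to 809 in dosed hearts against controls (543, 497 and 325 without C2, C3 and C4, and 403, 308, 451 and 529 without T1 to T4), fits with fewer libraries. Of the 10 genes, 4 to 6 were called in the model, 5 in every fit after TYA-018, and 0 to 1 in dosed hearts against controls (Zbtb16 without C2). Mt2 ranged from -0.031 to 0.31 in the model and from -0.096 to 0.23 after TYA-018. In dosed hearts against controls Fkbp5 ranged from -0.11 to 0.15, Ddit4 from -0.23 to 0.15, Pik3ip1 from -0.022 to 0.080 and Mt1 from -0.021 to 0.19.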
